A study of Rattus norvegicus with 8 samples.

Results

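The 8 genes described here encode the enzymes that make and break down GABA, the transporters that move it and the 2 subunits of its metabotropic receptor. They were found as the non-control spots whose gene name in the scanner files was Gad1, Gad2, Slc32a1, Slc6a11, Slc6a13, Abat, Gabbr1 or Gabbr2, which gave 8 of 35199 gene names, 12 of 41012 probes and 21 of 43379 spots. All 8 were quantified, each on at least 1 spot that was valid (foreground at least 2 times its local background) in every rat. RNA of the dentate gyrus (DG) was measured in adult female Sprague-Dawley rats of 150 to 200 g, all of them ovariectomized (OVX) 1 week before hormone replacement and all taken through status epilepticus (SE), a continuous seizure, induced with kainic acid. The 4 COS rats received oil, and the 4 CES rats received estradiol (EB in the sample labels). Per the labels, estradiol was given as 4 doses of 2 μg at intervals of 24 h, of which 2 preceded SE and 2 followed it, kainic acid was given at 16 mg/kg and pentobarbital ended SE after 5 h. The study's methods describe a different protocol, with all hormone injections before a lower dose of kainic acid, diazepam to end SE, and collection of the tissue on the same day in one paragraph and a day after SE in another, so the time after SE is not settled here. Rats without SE were not analysed here, and each difference below is therefore between oil and estradiol after seizures, not a response to the seizures.

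GABA is the main inhibitory transmitter of the adult brain. Glutamate decarboxylase, which Gad1 and Gad2 encode in separate forms, makes it from glutamate, and the vesicular transporter encoded by Slc32a1 loads it into synaptic vesicles. Slc6a11 and Slc6a13 encode plasma membrane GABA transporters, the first best known from astrocytes and the second from the meninges and the choroid plexus, and Abat encodes the mitochondrial transaminase that breaks GABA down. Gabbr1 and Gabbr2 encode the subunits of the GABA-B receptor, which pairs both of them, couples to inhibitory G proteins, opens potassium channels and closes calcium channels. In the DG, GABA is made mainly by interneurons, while granule cells, the principal neurons, are known to make some of it after seizures.

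The array carried 3 probes for Gad1, 3 for Gabbr1 and 1 for each of the other genes, each probe of 60 bases. Per the files, the positions refer to the rn4 build. The Gad1 probes lie on the plus strand of chromosome 3 at 52813028 to 52813087 (A_44_P243102), 52815087 to 52817521 (A_44_P115461) and 52828914 to 52828973 (A_44_P536310), and the probe of Slc32a1 at 149346783 to 149346842 of the same chromosome. The second Gad1 probe matches a genomic span of 2435 bases, so it joins exons across a splice junction. The Gad2 probe lies on chromosome 17 at 96321562 to 96321621, and those of Slc6a11 and Slc6a13 on chromosome 4 at 150195271 to 150196078 and at 157771827 to 157771886. On the minus strand lie the probes of Abat, on chromosome 10 at 7047983 to 7048042, of Gabbr2, on chromosome 5 at 63242058 to 63242118, and of Gabbr1, on chromosome 20 at 1554609 to 1554668 (A_44_P249164), 1554880 to 1554939 (A_43_P12481) and 1577515 to 1578777 (A_44_P313708). Whether the Gad1 probes differed from each other was not tested. The third, A_44_P536310, has 0 forward reading frames without a stop codon and is not printed, although it is the brightest and dominates the Gad1 value. The sequences below are of the other probes for synthesis and breakdown, each with at least 1 such frame. They are written 5′ to 3′ in the sense of the mRNA, with no part in capitals.
Gad1 A_44_P243102: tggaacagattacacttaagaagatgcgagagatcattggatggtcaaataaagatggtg
Gad1 A_44_P115461: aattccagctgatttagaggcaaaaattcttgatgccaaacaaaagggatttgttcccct
Gad2 A_44_P554928: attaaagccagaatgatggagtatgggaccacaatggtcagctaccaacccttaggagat
Abat A_44_P308925: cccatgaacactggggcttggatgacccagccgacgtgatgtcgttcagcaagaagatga

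Each channel of a 2-colour array was 1 rat, and each of the 4 arrays, all on 1 slide, held 2 rats of the same group, replicates 1 and 3 in Cy3 and replicates 2 and 4 in Cy5. A COS rat had 32381 to 38553 valid spots and a CES rat 30690 to 35352, no spot was saturated, and the number of rats limits the precision. CES replicate 2 stood apart from its group. Over the 21332 gene names quantified, the correlation of its log2 levels was 0.975 to 0.983 with the COS rats and 0.955 to 0.964 with the other CES rats, whereas those 3 rats correlated at 0.933 to 0.944 with the COS rats. Results are therefore given with and without it. Levels are log2 of the signal over the median signal of the valid spots of the channel, and differences are CES minus COS on that log2 scale. The median difference of all genes was -0.25, and it was 0.15 when every channel was instead scaled on the spots that were valid in all rats (common-spot scaling), so each difference is also given relative to that median of all genes.

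Both glutamate decarboxylase genes had lower mean levels in CES, by about the same amount, and neither passed the test over all genes with all 8 rats, the dye term and the array block. The log2 level of Gad1 was 2.93, 3.24, 3.35 and 2.65 in COS replicates 1 to 4, and 2.31, 2.79, 2.56 and 2.24 in CES replicates 1 to 4. The groups overlapped through 1 rat of each, with CES replicate 2 above COS replicate 4. The difference was -0.57 ± 0.21 (SE, n = 4 and 4, limma adjusted p = 0.0603), or -0.32 relative to all genes. For Gad2 the levels were 3.26, 3.06, 3.89 and 2.89 in the COS rats and 2.61, 3.14, 2.82 and 2.21 in the CES rats. Again CES replicate 2 was the highest of its group, above COS replicates 2 and 4. The difference was -0.58 ± 0.25 (limma adjusted p = 0.0956), or -0.33 relative to all genes. Without CES replicate 2 both genes passed the test, Gad1 at -0.71 (limma adjusted p = 0.0202) and Gad2 at -0.82 (limma adjusted p = 0.00838). Without CES replicate 3 the adjusted p of Gad1 was 0.0440, also past the threshold. Leaving out any other single rat left Gad1 uncalled (limma adjusted p = 0.0511 to 0.263). With all 8 rats but no dye term both passed (limma adjusted p = 0.0156 and 0.0387), and with the replicate number as a block Gad1 did (limma adjusted p = 0.0298). With common-spot scaling the differences were -0.17 and -0.18 (limma adjusted p = 0.468 and 0.578). Of 32 alternatives, Gad1 was called in 4 and Gad2 in 2, all of them named above. In bulk tissue, fewer cells that express a gene and less of its RNA per cell cannot be told apart.

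**Figure D1:**
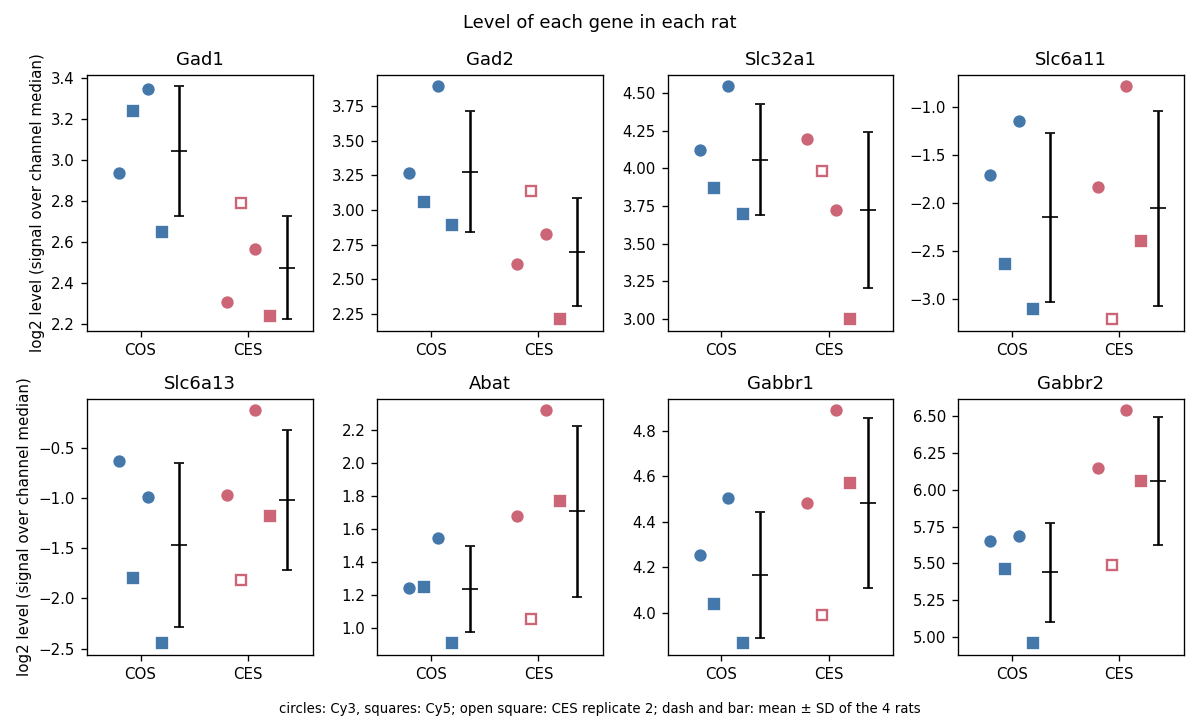
Log2 level (signal over the channel median) of each of the 8 genes in each rat, by group, with the mean ± SD of the 4 rats beside the points; circles are Cy3 and squares Cy5 rats. CES replicate 2 (open square) lies above the other CES rats for Gad1 and Gad2 and below them for Abat, Gabbr1 and Gabbr2. No gene separates the groups fully on this scale.

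The 3 Gad1 probes were all lower on average in CES, and the 2 that lie toward the start of the transcript were lower in every CES rat than in any COS rat. On A_44_P243102 the log2 levels were 0.13, 0.07, 0.85 and -0.27 in the COS rats and -0.48, -0.44, -0.46 and -0.91 in the CES rats. On A_44_P115461 they were 1.09, 1.06, 1.61 and 0.67 in the COS rats and 0.34, 0.51, 0.51 and 0.07 in the CES rats. Both probes thus kept the groups apart with CES replicate 2 included. Fitted over 25698 probes, of which 29% were called lower and 20% had all CES rats below all COS rats, their differences were -0.77 ± 0.21 (limma adjusted p = 0.0217) and -0.75 ± 0.20 (limma adjusted p = 0.0185). On the third and brightest probe, A_44_P536310, the levels of 4.30, 4.66, 4.68 and 4.04 overlapped those of the CES rats, 3.69, 4.21, 3.96 and 3.65, and the difference was -0.54 ± 0.21 (limma adjusted p = 0.0731). As the brightest, it dominates the mean over the gene. The calls on the first 2 probes depended on the scaling. With loess within and Aquantile between arrays the differences were -0.38 and -0.34 (limma adjusted p = 0.185 and 0.148) and the groups overlapped, and without CES replicate 2 all 3 probes were called lower (limma adjusted p = 0.00703, 0.00583 and 0.0242). Relative to all probes the differences of the first 2 lay between -0.34 and -0.61 in the 9 settings run over probes.

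**Figure D2:**
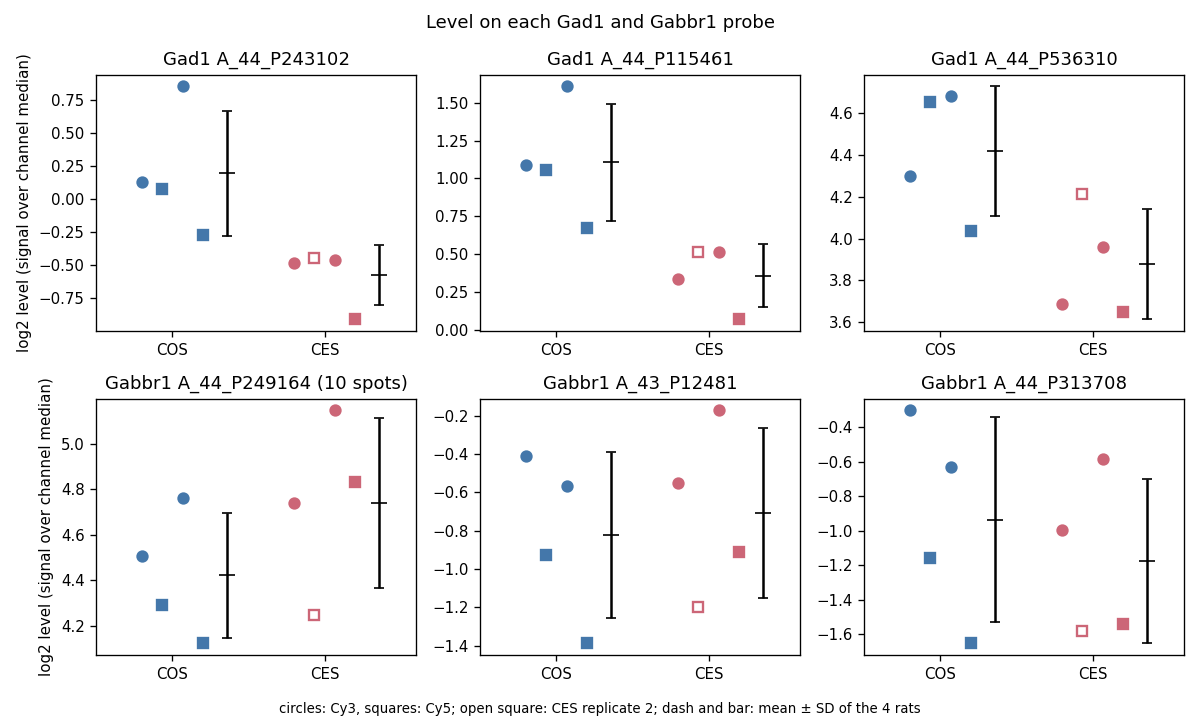
Log2 level on each probe of Gad1 (top) and Gabbr1 (bottom) in each rat, with the mean ± SD of the 4 rats; circles are Cy3, squares Cy5, and the open square is CES replicate 2. The groups are apart on A_44_P243102 and A_44_P115461 and overlap on the other 4 probes.

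Slc32a1, the vesicular GABA transporter, had a lower mean in CES that did not pass the test, and its size and sign depended on the processing. Its log2 level was 4.12, 3.87, 4.54 and 3.70 in the COS rats and 4.19, 3.98, 3.72 and 3.00 in the CES rats. The groups overlapped widely, with only CES replicate 4 below every COS rat. The difference was -0.33 ± 0.24 (limma adjusted p = 0.296), -0.08 relative to all genes, and -0.54 without CES replicate 2 (limma adjusted p = 0.0569). With common-spot scaling it changed sign, to 0.07. On the processed signal that the files carry it was -0.73 (limma adjusted p = 0.0607), and -0.95 when CES replicate 2 was also left out (limma adjusted p = 0.0199), which was called lower. The scanner software marked the only spot of this gene as an outlier in 1 channel, so the gene has no value where marked spots are left out.

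Neither plasma membrane transporter passed the test, and both were close to background. Slc6a11 was well above background, by the mark of the scanner software, in 0 of 4 COS rats and 2 of 4 CES rats. Its log2 level was -1.71, -2.64, -1.15 and -3.11 in the COS rats and -1.83, -3.22, -0.78 and -2.40 in the CES rats. Within both groups the Cy3 rats were higher than the Cy5 rats, and the groups overlapped. The difference was 0.09 ± 0.28 (limma adjusted p = 0.818), and since the COS level is only a bound and the CES level is measured in part of the rats, no direction is given. Slc6a13 was well above background in 3 rats of each group, with levels of -0.63, -1.80, -0.99 and -2.45 in the COS rats and -0.96, -1.82, -0.12 and -1.17 in the CES rats. The difference was 0.45 ± 0.26 (limma adjusted p = 0.200), or 0.70 relative to all genes, and it was called higher with common-spot scaling (0.85, limma adjusted p = 0.0436) and not without CES replicate 2 (0.55, limma adjusted p = 0.136). Markers of the tissues where Slc6a13 is best known varied between rats. The median level of 13 meninges and fibroblast markers, relative to all genes of the rat, ran from 0.39 to 1.13 in COS and from 0.68 to 1.27 in CES, and that of 11 choroid plexus markers from -3.01 to 1.86 and from -1.89 to -0.06, with COS replicate 2 the highest. Their part in the Slc6a13 values was not tested.

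Abat, the GABA-degrading enzyme, had a higher mean in CES that did not pass the test with all rats and the channel-median scaling, and passed it under some other settings. Its log2 level was 1.24, 1.24, 1.54 and 0.90 in the COS rats and 1.68, 1.05, 2.32 and 1.77 in the CES rats. The CES rats other than replicate 2 were above every COS rat. The difference was 0.47 ± 0.22 (limma adjusted p = 0.130), or 0.73 relative to all genes. Leaving out CES replicate 2 gave 0.64 (limma adjusted p = 0.0319). With common-spot scaling it was 0.87 (limma adjusted p = 0.0380), and with loess and Aquantile 0.85 (limma adjusted p = 0.0378). Over the spots well above background in all 8 rats it was 0.92 (limma adjusted p = 0.00959).

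Gabbr2, the receptor subunit that couples to G proteins, was higher in CES and alone among the 8 genes passed the test with all rats, the channel-median scaling, the dye term and the array block. Its log2 level was 5.65, 5.46, 5.68 and 4.96 in the COS rats and 6.15, 5.49, 6.54 and 6.06 in the CES rats. All CES rats except replicate 2 were above every COS rat. The difference was 0.62 ± 0.20 (limma adjusted p = 0.0357), a 1.54-fold higher level, or 0.88 relative to all genes. Without CES replicate 2 it was 0.75 (limma adjusted p = 0.0120). The call was lost, with the same direction, when COS replicate 1, 3 or 4 (limma adjusted p = 0.103, 0.116 and 0.109) or CES replicate 1, 3 or 4 (limma adjusted p = 0.0773, 0.0644 and 0.0628) was left out, and under normexp background correction (limma adjusted p = 0.234). Gabbr1, the subunit that binds GABA, had levels of 4.25, 4.04, 4.51 and 3.87 in the COS rats and 4.48, 3.99, 4.89 and 4.57 in the CES rats. CES replicate 2 was again the lowest of its group, within the COS range. The difference was 0.32 ± 0.19 (limma adjusted p = 0.215), or 0.57 relative to all genes, and 0.43 without CES replicate 2 (limma adjusted p = 0.0894). With common-spot scaling, Gabbr1 and Gabbr2 were both called higher, by 0.72 and 1.02 (limma adjusted p = 0.0373 and 0.0208).

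The Gabbr1 value rests on 10 spots of A_44_P249164 and on 1 spot each of 2 probes that the files assign to the transcripts named GABA B receptor 1g (A_44_P313708) and GABAB receptor 1d (A_43_P12481). The SD of the log2 level over the 10 spots was 0.22 to 0.32 within a rat. Part of this spread was shared by rats, so it is not the error of the difference between the groups. For example, 1 spot lay above another in every COS rat (4.86 and 4.08 in COS replicate 1). In CES replicate 3 the same spots were at 5.09 and 5.16. The probe of the 1d transcript ran from -1.39 to -0.41 in COS and from -1.20 to -0.17 in the CES rats, and that of the 1g transcript from -1.65 to -0.30 and from -1.58 to -0.59. Their differences were 0.12 ± 0.18 (limma adjusted p = 0.645) and -0.24 ± 0.19 (limma adjusted p = 0.342), against 0.32 ± 0.19 on A_44_P249164 (limma adjusted p = 0.214). The sign on the 1g probe turned under other scalings, to 0.16 with common-spot scaling. Whether the probes changed differently was not tested.

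In all, 1 of the 8 genes was called, Gabbr2, against 34.1% of all 21332 gene names, of which 5.8% were called higher and 28.3% lower. With this channel-median scaling, none of the 8 had groups that did not overlap, against 21.4% of all genes. With common-spot scaling or loess and Aquantile, the probes of Abat and Gabbr2 and A_44_P249164 of Gabbr1 were apart, higher in CES. The share of all genes apart in those settings is not reported here. Without CES replicate 2, 4 of the 8 were called, Gad1 and Gad2 lower and Abat and Gabbr2 higher, against 40.9% of all genes. With common-spot scaling, 4 of the 8 were called, all higher (Slc6a13, Abat, Gabbr1 and Gabbr2), against 15.7% of all genes called higher. The median difference of the 8 was 0.21, against -0.25 for all genes. Relative to all genes, Gad1 lay between -0.46 and -0.21 and Gad2 between -0.58 and -0.16 in each of 32 alternatives, while Abat lay between 0.55 and 0.97, Gabbr1 between 0.43 and 0.74 and Gabbr2 between 0.75 and 1.08. Those 5 genes kept their side of the median of all genes in every alternative run, of which 5 (common-spot scaling, the methods' t-test, the replicate block, and leaving out the dye term or the array block) cannot change a difference relative to that median. Changing the filter or the gene names, or leaving out marked spots, moved Gad1, Gad2, Abat and Gabbr2 only through that median, so these settings add little. Within the dyes, with 2 rats of each group in each, the Cy3 and Cy5 differences were -0.71 and -0.43 for Gad1, -0.86 and -0.30 for Gad2, 0.61 and 0.34 for Abat, and 0.68 and 0.57 for Gabbr2, the same sign in both.

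**Figure D3:**
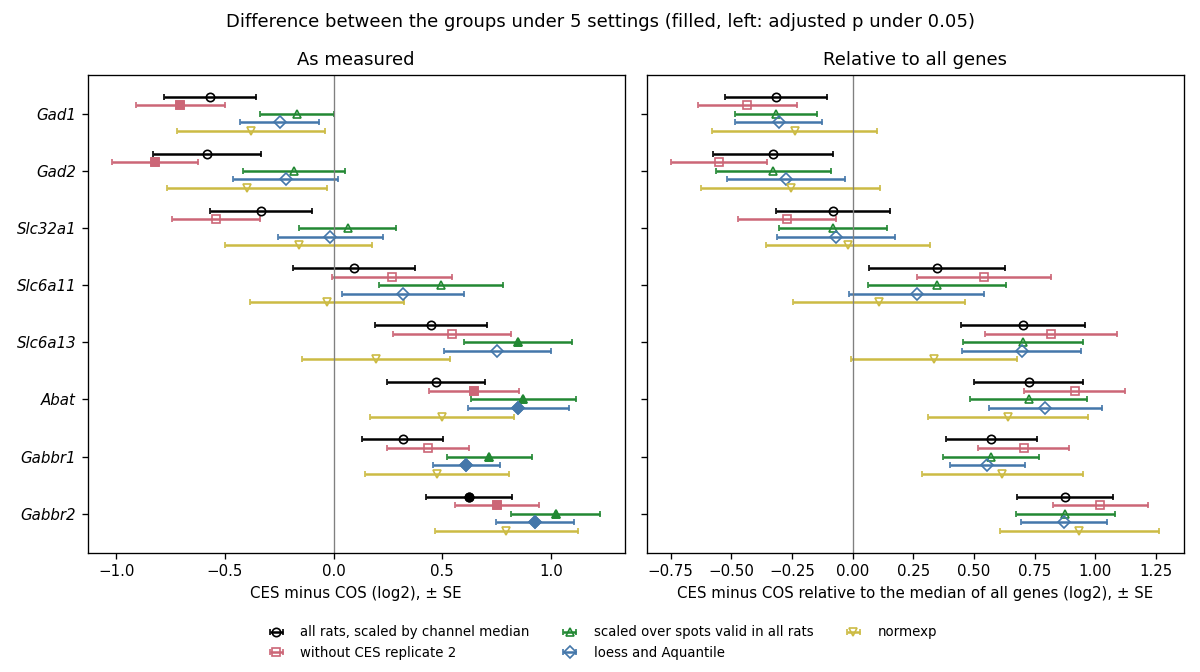
CES minus COS difference (log2) ± SE of each gene under 5 settings, as measured (left, filled where the limma adjusted p was under 0.05) and as distance from the median of all genes (right). The settings shift the left panel sideways. For Gad1, Gad2, Abat, Gabbr1 and Gabbr2 they lie closer together on the right, though Gad2 still runs from -0.55 to -0.26. There Gad1 and Gad2 stay below 0 and Abat, Gabbr1 and Gabbr2 above it. Channel-median and common-spot scaling coincide on the right by construction.

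A difference between 2 genes within a rat is free of a constant factor of its channel, but not of intensity-dependent processing. For this reason 5 pairs were compared between the groups by exact permutation tests over 70 assignments of rats, two-sided, with adjustment over the 5 pairs. The smallest p that these tests can give is 0.0286, which adjusted for a single pair is 0.143, so 1 pair alone could not pass 0.05. Gabbr1 minus Gabbr2 reached that smallest value. It was -1.40, -1.42, -1.18 and -1.09 in the COS rats and -1.67, -1.50, -1.65 and -1.49 in the CES rats, so that every CES rat was below every COS rat, CES replicate 2 included. The change was -0.31 with a 95% interval of -0.575 to -0.07 (exact permutation p = 0.0286, adjusted p = 0.143), which means that the mean of Gabbr2 was farther above its COS level than that of Gabbr1. Without CES replicate 2 the change was -0.33, with an interval of -0.756 to 0.019. With all rats, the smallest p was not reached with loess and Aquantile or the processed signal (exact permutation p = 0.0571 each). Nor was it with quantile normalization (exact permutation p = 0.0857), so the groups overlapped in these settings.

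**Figure D4:**
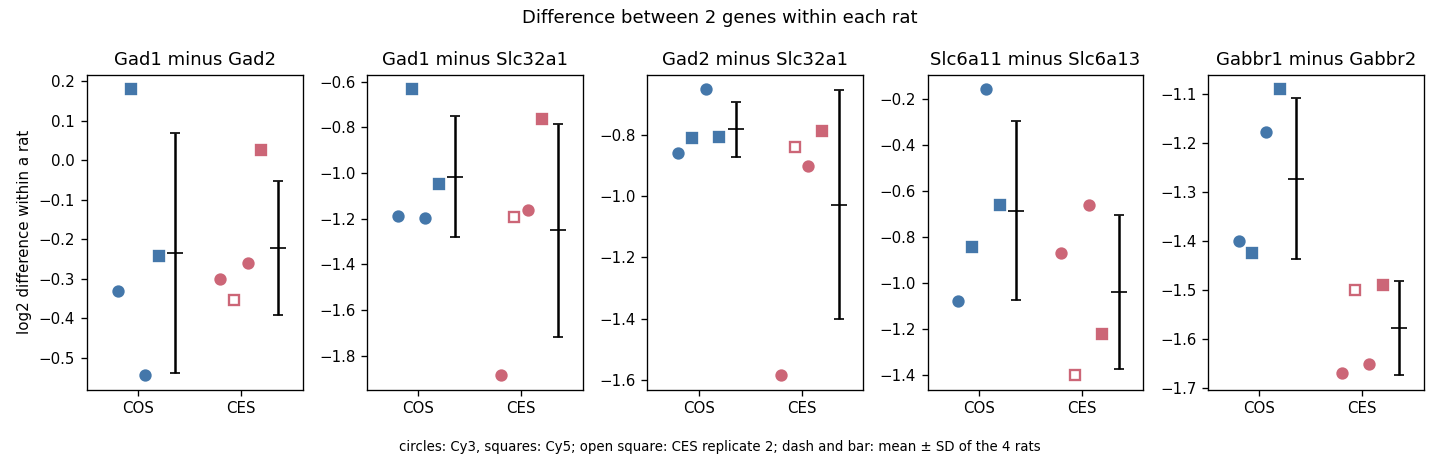
Difference between the log2 levels of 2 genes within each rat, for the 5 pairs, with the mean ± SD of the 4 rats; circles are Cy3, squares Cy5, and the open square is CES replicate 2. The groups are apart for Gabbr1 minus Gabbr2 and overlap for the other 4 pairs.

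The other 4 pairs showed no difference between the groups beyond the spread of the rats, and their intervals were wide. Gad1 minus Gad2 changed by 0.01, with a 95% interval of -0.528 to 0.567 (exact permutation p = 0.943). Gad1 minus Slc32a1 changed by -0.23, with an interval of -1.25 to 0.43 (exact permutation p = 0.429), and Gad2 minus Slc32a1 by -0.25, with an interval of -0.932 to 0.068 (exact permutation p = 0.200). For the transporters, Slc6a11 minus Slc6a13 changed by -0.35, with an interval of -1.238 to 0.417 (exact permutation p = 0.229). The adjusted p of these 4 pairs ran from 0.381 to 0.943.

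Among the 13692 other genes that were well above background in all 8 rats, those whose centred log2 levels over the 8 rats came nearest to Gad1 were the unnamed transcript of probe A_44_P527780, Cdyl2 and Slc7a8, at root mean square differences of 0.0639, 0.0642 and 0.0704. Nearest to Gad2 were Wipi2, Ide and Smc4, at 0.0896, 0.0914 and 0.0917. These genes were picked as the nearest of 13692, so that the synthesis enzymes lay farther from each other is no result. At a difference of 0.213, Gad2 ranked 1681 among the genes by likeness to Gad1, and Gad1 ranked 737 by likeness to Gad2. Slc32a1 ranked 6181 from Gad1 and 2280 from Gad2, and Gabbr2 12296 and 12403.

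Other genes of GABA handling and signalling were called in both directions, as were all genes, of which 5.8% were higher and 28.3% lower. Of 21 genes of GABA uptake, breakdown and precursor supply, 3 were called higher and 5 lower, with a median difference of 0.06, so that the share lower was near that of all genes. Slc38a2 and Slc38a5, which carry glutamine, fell by 1.38 and 1.27 (limma adjusted p = 0.00462 and 0.0241), and Glul, the glutamine synthetase of astrocytes, fell by 0.77 (limma adjusted p = 0.0122). Slc38a5 and Glul were not called with common-spot scaling. Without CES replicate 2 the list had 8 called higher and 5 lower, and with common-spot scaling 9 higher and 1 lower. Of all genes, 1837 of 21461 were called higher and 6939 lower without that rat. With common-spot scaling these counts were 3348 and 1718 of 21332.

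Of 24 GABA-B receptor partners and effectors quantified, 5 were called higher and 7 lower, the latter again near the share of all genes, with a median difference of 0.02. Kctd12, an auxiliary subunit of the receptor, fell by 1.89 (limma adjusted p = 0.00596), and it was well above background in 2 of the 4 CES rats. Kcnj6, a subunit of the potassium channel that the receptor opens, was higher by 1.24 (limma adjusted p = 0.00577), as was Cacna1b, the pore subunit of a calcium channel that it closes, by 1.08 (limma adjusted p = 0.00518). Atf4, a stress-response transcription factor that binds the receptor, fell by 1.18 (limma adjusted p = 0.00570). The counts without CES replicate 2 were again 5 higher and 7 lower, and with common-spot scaling 7 higher and 2 lower. The counts over all genes in these settings are those given above.

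Of 14 GABA-A receptor subunits quantified, 5 were called higher and none of them lower, against 5.8% and 28.3% of all genes. The median difference of the list was 0.35. The largest were Gabra5 at 0.98 (limma adjusted p = 0.00678), Gabra4 at 0.72 (limma adjusted p = 0.0213), Gabrq at 0.72 (limma adjusted p = 0.0253) and Gabra2 at 0.70 (limma adjusted p = 0.0233), all subunits of the ionotropic GABA receptor. Leaving out CES replicate 2 gave 6 higher and none lower, against 1837 and 6939 of 21461 genes. The count higher was 8 with common-spot scaling, where the median difference was 0.75 and 15.7% of all genes were called higher. It was also 8 with loess and Aquantile, with quantile normalization and with the deposited log2 table. In these settings 3042 and 3055 of 21332 and 3275 of 21008 genes were called higher. No subunit was called by limma with normexp or with no filter on valid spots, where 586 and 0 of all genes were called.

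Markers of cell types in the DG moved beside these genes. The counts of each list stand against 5.8% of all genes called higher and 28.3% lower. Of 24 interneuron markers, 2 were called higher and 5 lower, with a median difference of 0.23. The largest differences were in neuropeptide genes, where the differences were -3.75 for Tac1, -2.74 for Penk, -1.84 for Npy and -1.56 for Sst (limma adjusted p = 0.00294, 0.00654, 0.00730 and 0.00650). These 4 were apart between the groups, unlike the gene values of Gad1, Gad2 and Slc32a1, though 2 Gad1 probes were apart too. Which cells carried the transcripts of these 4 genes was not measured. Of all 21332 genes, 4225 were apart and lower in CES. Most of the list lay on the other side, with 18 of the 24 above the median of all genes. The median of the list relative to all genes of the rat ran from 0.50 to 0.76 in COS and from 1.03 to 1.35 in the CES rats. With common-spot scaling, 14 of the 24 were called higher and 4 lower, against 3348 and 1718 of 21332 genes. Of 15 astrocyte markers, 7 were called higher and 3 lower, led by Gjb6 at 2.27, S100b at -2.22, Agt at 1.34 and Gja1 at 1.27 (limma adjusted p = 0.00770, 0.0479, 0.0317 and 0.0341), with a list median of 1.88 to 2.62 in the COS rats and 2.77 to 3.70 in the CES rats. Of 10 granule cell markers, 1 was called higher, Neurod1 at 1.16, and 4 lower, among them Dsp at -1.24, C1ql2 at -1.23 and Trpc6 at -0.89. Of 13 meninges and fibroblast markers, 1 was higher and 5 lower, led by Mgp at -2.32, Foxc1 at -1.12, Slc47a1 at -1.11 and Col3a1 at -1.10, and of 11 choroid plexus markers none was called. Some of these were near background in part of the rats, since Dsp was well above background in 3 of 4 COS and 2 of 4 CES rats, Slc47a1 in 3 and 1, and Foxc1 and S100b in 4 and 3, so their differences are not exact. Without CES replicate 2 the counts called higher and lower were 5 and 5 for interneuron, 7 and 4 for astrocyte, 1 and 4 for granule cell and 1 and 6 for meninges and fibroblast markers. Of the 21461 genes quantified then, 1837 were called higher and 6939 lower. With common-spot scaling Tac1, Penk, Npy, Sst, Gjb6, Neurod1 and Mgp were still called, and S100b, Agt, Gja1, Dsp, C1ql2, Trpc6, Foxc1, Slc47a1 and Col3a1 were not. The part of these cell types in the values of the 8 genes was not tested.

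**Figure D5:**
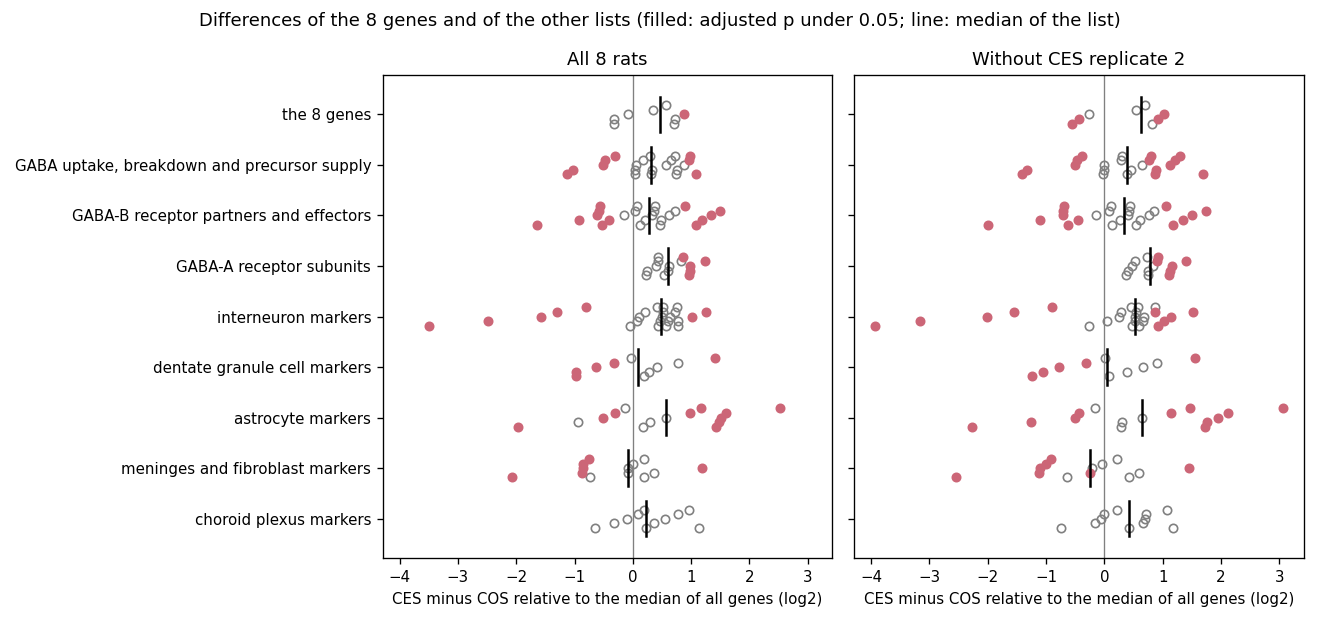
CES minus COS difference (log2) relative to the median of all genes for the 8 genes and for the genes of each other list, with all rats (left) and without CES replicate 2 (right); filled points had a limma adjusted p under 0.05 for the difference as measured, and a line marks the median of the list. The quantified GABA-A subunits all lie above 0, and the interneuron markers spread from -3.49 to 1.25 with all rats.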

How the data were processed

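RNA from the DG of 4 COS and 4 CES rats was labeled with Cy3 or Cy5 and hybridized to 4 2-colour arrays, with group, replicate number and dye as the labels state them. As deposited by the authors, the scanner files give spot and local background intensity per channel, not yet normalized, from Agilent Feature Extraction. A log2 table deposited by the authors was an alternative, each column of which differs from the log2 of the median signal minus background of its channel by a constant.

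For each valid spot, mean signal minus background median was expressed relative to the median of its channel (valid spots), averaged over the spots of a gene valid in all 8 rats (27642 spots, 21332 gene names) and taken to log2. The iterative renormalization of the methods was not applied, since it needs groups not used here. Spots with an outlier mark were kept, as the methods define validity by background alone. Control spots were left out. CES was compared with COS in limma 3.58.1 (R 4.3.3), the dye being a fixed effect and the array a random block (duplicateCorrelation, statmod 1.5.0), because each array holds 1 group. The test was two-sided, adjusted by Benjamini-Hochberg across the gene names, with a threshold of 0.05. The fit was tested on simulated data. It recovered 92.7% of true differences of 2 and 29.7% of those of 1 on the log2 scale. Of its 135 calls 7 were false, and a gene not called may still differ. The median standard error was 0.197. Because each array held rats of 1 group only, differences between arrays cannot be told apart from those between the groups. The array correlation in the fit was -0.0064, against 0.277 with common-spot scaling and 0.57 with normexp. Nothing in the sources ties the rats to separate litters or cages. The p-values rest on the spread between these rats as the fit with dye and array block estimates it.

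All 8 genes are given with every rat. From the other lists, the genes with an adjusted p under 0.05 are named, at most the 4 largest per list; 1 further gene of the rule is not reported here. The genes and lists were chosen with earlier results of these data known. Alternatives covered the background correction, signal, scaling, filter, block, dye term, probe rule, test, deposited table, gene names and leaving out each rat. Leaving out marked spots, combining other settings with the loss of CES replicate 2, and the alternatives over probes were chosen after seeing the data. Figures were drawn with matplotlib in Python.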

Additional observations from a re-analysis of the deposited data

Results flagged for a closer look

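On the Gad1 probe A_44_P243102, CES replicate 4 was the lowest of its group at a log2 level of -0.91, with a gap to the nearest CES rat that was 0.917 of the range of the group. For Gad2 minus Slc32a1, CES replicate 1 was the lowest of its group at -1.59, with a gap of 0.859 of the range. These were 2 of 38 groups of 4 rats checked, and chance alone puts about 1 group in 20 past the critical value.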

How the results depend on the processing

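Which of the 8 genes were called depended on the scaling and on CES replicate 2, while the signs of Gad1, Gad2, Slc6a13, Abat, Gabbr1 and Gabbr2 were the same in every alternative that gave them a value. The count called was 3 with loess and Aquantile, with quantile normalization and with spots well above background in all 8 rats (Abat, Gabbr1 and Gabbr2 each time), 4 with common-spot scaling and with the deposited log2 table (Slc6a13 added), and 3 without the dye term (Gad1, Gad2 and Gabbr2). It was 0 with normexp, with no filter on valid spots and with the methods' t-test, where unadjusted p under 0.05 held for 3029, 9222 and 6103 of all genes. It was 1 with the processed signal, but for Slc6a11 (1.02, limma adjusted p = 0.0373), which is near background. Leaving out 1 rat, alone or with another setting, gave 0 to 4. Genes called over the whole array numbered 7276, and 586 with normexp, 4100 with foreground at least 3 times background, 3103 with spots well above background, and 0 with no filter and with the methods' t-test. Leaving out 1 rat gave 1133 (COS replicate 3) to 8776 (CES replicate 2). Of the calls, 1238 were higher and 6038 lower, against 3348 and 1718 with common-spot scaling, 3042 and 1892 with loess and 3275 and 1927 with the deposited table. The cause of these moves was not tested.

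Signs turned for small differences. Slc32a1 was 0.065 with common-spot scaling, 0.012 with no filter, 0.11 with spots well above background and 0.069 with the deposited table. Slc6a11 was -0.032 with normexp, and -0.21 to 1.13 over the settings that leave out 1 rat. Gad1 minus Gad2 changed by -0.064 with the processed signal, -0.028 with loess and -0.026 with quantile normalization, and by -0.092 to 0.15 with 1 rat left out. With the processed signal, Gad1 minus Slc32a1 changed by 0.15, Gad2 minus Slc32a1 by 0.21 and Slc6a11 minus Slc6a13 by 0.53, and with 1 rat left out by -0.40 to 0.14, by -0.33 to 0.18 and by -0.48 to 0.55. The Gabbr1 probe A_44_P313708 was at 0.090 with loess, 0.094 with quantile normalization, 0.16 with common-spot scaling and 0.16 with the deposited table. No pair passed 0.05 after adjustment in any of the 28 alternatives, a threshold that 1 pair alone could not reach. Gabbr1 minus Gabbr2 stayed negative in all of them. Common-spot scaling, no filter and foreground at least 3 times background returned its main value of -0.31 unchanged, so their sign adds nothing.

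The replicate numbers share only the dye. Same-numbered rats deviated together with the dye left in (r = 0.21 to 0.34) and not with it taken out (r = -0.06 to -0.04), and 3 of 8 rats correlated best with their own number. With the replicate block, 7207 genes were called, Gad1 passed (limma adjusted p = 0.0298) and Gabbr2 did not (limma adjusted p = 0.0579).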
